A study of Arabidopsis thaliana with 7 samples.

Results

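Binding of the clock protein CCA1 was examined at 8 Arabidopsis thaliana genes that make or control phenylpropanoids: the phenylalanine ammonia-lyase genes PAL1 and PAL2, the chalcone synthase gene CHS (TT4 in the files), the flavonol synthase gene FLS1, and the anthocyanin regulators MYB75 (PAP1), MYB90 (PAP2), MYB113 and MYB114. The genes were chosen by name out of 37899 nuclear genes of the reference annotation. That number counts every annotated nuclear locus, pseudogenes included, so shares of all nuclear genes given below are not shares of protein-coding genes. Every peak whose nearest promoter or annotated gene was among them was collected, which gave 4 of 1433 peaks in continuous light and 3 of 1607 peaks in light-dark cycles. The measurement was chromatin immunoprecipitation followed by sequencing (ChIP-seq) with an antibody against green fluorescent protein (GFP), in WS-2 ecotype seedlings that express CCA1-GFP from the CCA1 promoter. All seedlings were 14 days old, had grown in a 12 h day and a 12 h night, and were harvested whole at zeitgeber time (ZT) 2. The continuous light group (LL, 3 libraries) had left this day-night regime for constant light, and the light-dark group (LD, 2 libraries) had stayed in it. How long LL lasted, whether the plants keep an untagged CCA1 and how many transgenic lines were used are not stated in the labels. An LL library of ZT14 and an input library were not analysed on their own. No source used here says whether either supplied the control behind the deposited control tags and folds over control.

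Phenylpropanoids derive from phenylalanine, which PAL enzymes deaminate to cinnamate. Chalcone synthase diverts the pathway into flavonoids, flavonol synthase then makes the ultraviolet-screening flavonols, and other branches lead to anthocyanin pigments, lignin and sinapate esters. The MYB75 family of R2R3-MYB proteins switches on the late anthocyanin genes together with bHLH partners and the WD40 protein TTG1. CCA1 is itself a MYB-related protein that accumulates around dawn and binds the promoters of clock-controlled genes.

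The libraries of a regime were pooled by the authors into 1 peak list, and the values have no spread between replicates. LL peaks were 158 bp wide and held 17 to 229 sequence tags (median 26), and LD peaks were 124 bp wide and held 31 to 234 (median 46). A tag was worth 7.48 normalised units in LL and 3.44 in LD. Positions are on TAIR10. The authors deposited the scores, the folds over control and the gene assignments used here. A percentile is the share of the other peaks of the same list with a lower value, ties counted at equal weight above and below.

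CCA1 peaks were assigned to PAL2, CHS, FLS1 and MYB90 in LL, and to PAL2, CHS and MYB90 in LD. PAL1, MYB75, MYB113 and MYB114 were assigned none in either list. That is 4 of 8 genes in LL and 3 of 8 in LD, and of all nuclear genes 3.82% had an LL peak and 4.24% an LD peak. The 8 genes were chosen with earlier results of these data known, so their shares are descriptions and not a test of enrichment. Counted by the nearest promoter alone, the 8 genes still had 4 and 3, against 3.38% in LL and 3.77% in LD. With centres in a window of 1000 bp before to 500 bp after the transcription start site (TSS) they had 2 (CHS and FLS1) in LL and 1 (CHS) in LD, against 2.21% and 2.45%. In the upper 50% of each list by score, with ties at the median, 3 of them had a peak in LL (without FLS1) and 3 in LD, against 2.03% and 2.18%. The annotation column alone names 1 of them in LL (FLS1) and 0 in LD, against 2.84% and 3.15%. In both lists 3 of the 8 genes had a peak, against 2.93% of all nuclear genes. None of the 8 genes had more than 1 peak in a list. No peak was among the strongest of its list, with score ranks of 480 to 1195 among LL peaks and 502 to 741 among LD peaks.

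**Figure D1:**
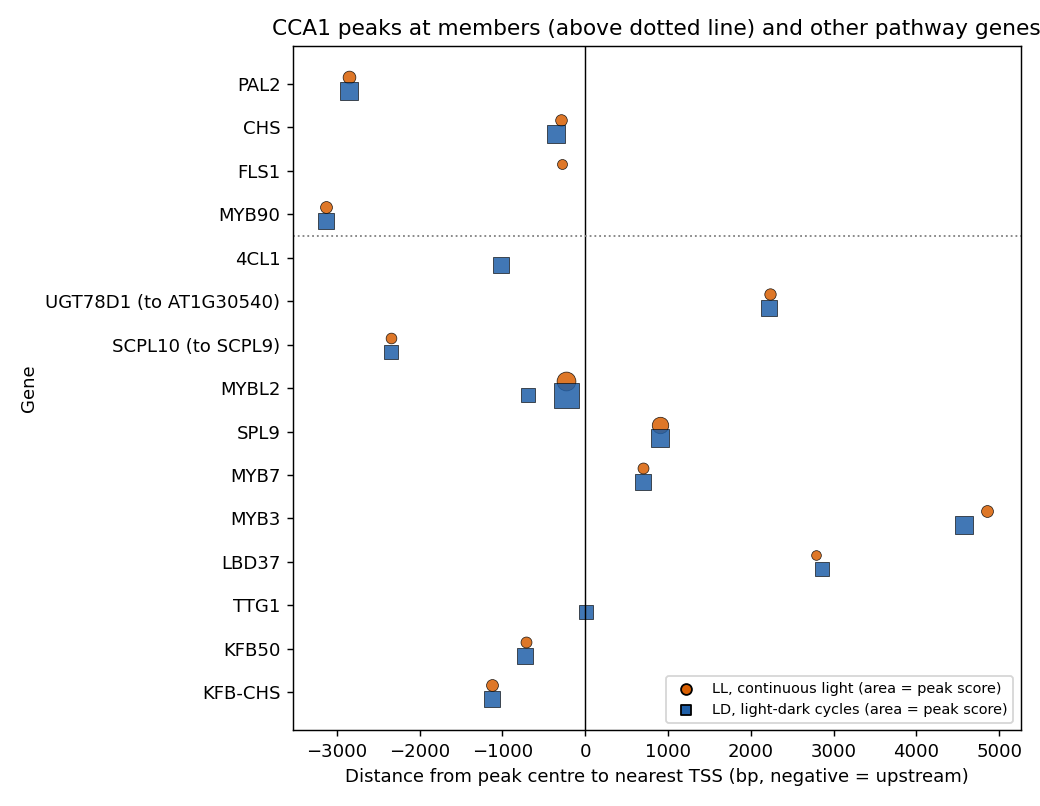
Distance in bp from each peak centre to the TSS of its nearest promoter, with LL as circles above and LD as squares below, and symbol area proportional to the authors' score within a list. CHS and FLS1 peaks lie 282 to 353 bp upstream, PAL2 and MYB90 peaks 2851 to 3128 bp upstream. For UGT78D1 and SCPL10 the distance is to the neighbouring gene named on the axis.

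PAL1 (AT2G37040) and PAL2 (AT3G53260) encode the main phenylalanine ammonia-lyases of Arabidopsis. PAL2 was assigned a peak on chromosome 3 from 19749552 to 19749710 in LL, and from 19749574 to 19749698 in LD. Their centres were 5 bp apart, 2851 bp upstream of the PAL2 TSS in LL and 2856 bp in LD. Few peaks lie so far upstream: 5.09% of LL peaks and 4.60% of LD peaks were more than 2500 bp upstream of their nearest TSS. The annotation column places the same peaks at the transcription termination site of the adjacent AT3G53270, so the columns name different genes. By the gene coordinates of the reference annotation the peaks lie between PAL2 and AT3G53270.

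The PAL2 peak held 32 tags in LL (95% Poisson interval 21.9 to 45.2) and 56 in LD (42.3 to 72.7), with scores of 31 and 57. It had the highest LL score of the 4 genes, at percentile 65.0 of its list. Its control tags were also high, with 5.7 in LL and 10.0 in LD, above 97.7% and 97.8% of other peaks. It therefore stood only 5.64-fold over control in LL and 5.60-fold in LD, at percentiles 2.79 and 3.42. At PAL1 the nearest gene with a peak was AT2G37140, 12 genes away, in either list.

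CHS (AT5G13930) encodes chalcone synthase, which catalyses the committed step into flavonoids. The LL peak spanned 4488315 to 4488473 of chromosome 5, at 294 bp upstream of the TSS, and the LD peak spanned 4488273 to 4488397, at 353 bp upstream. The annotation column assigns both peaks to the promoter of AT5G13920, the neighbouring gene on the other side. The region is thus upstream of CHS in one column and in the promoter of AT5G13920 in the other, and binding cannot be attributed to either gene from these files. The LL and LD centres differed by 59 bp, and 77 of all 1069 overlapping peak pairs differed by that much or more (median 15 bp).

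In LL the CHS peak held 25 tags (16.2 to 36.9), and in LD 58 tags (44.0 to 75.0). The scores of 26 and 59 stood at percentile 49.7 in LL and percentile 68.3 in LD. Fold over control was 5.94 in LL, at percentile 4.19, and 18.2 in LD, at percentile 63.5. The LL to LD ratio of that fold was -1.61 on the log2 scale, which ranked 5 from the bottom among 1069 overlapping pairs (median -0.03). The control tags were 4.2 in LL and 3.2 in LD, a ratio of 1.31, which ranked 4 from the top among all pairs (median 0.575). The LL and LD peaks at CHS overlapped by 83 bp, which is 52.2% of the LL peak and 66.4% of the LD peak. Their control tags and folds need not describe the same stretch. The interval of the LL to LD ratio of normalised tags at CHS included 1. The control tags were deposited after scaling, so their counting error is not known. No source used here says whether both lists were called against the same control library, so the LL to LD ratios of control tags and of fold over control may compare different controls. The part of the control tags in the result was not tested.

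FLS1 (AT5G08640) encodes the flavonol synthase that acts in seedlings. Both columns named FLS1 for its peak, unlike those at PAL2 and CHS. Over all peaks whose annotation names a gene, the columns differed at 17.0% in LL and 16.2% in LD. This peak was found in LL and spanned 2803596 to 2803754 of chromosome 5, in the promoter-TSS category and 282 bp upstream of the TSS. It held 19 tags (11.4 to 29.7), had a score of 19 at percentile 12.9, and was 8.44-fold over 2.3 control tags. No LD peak lay within 44729 bp of it.

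The absence of an LD peak at FLS1 does not show a difference between regimes, which was not tested. Of the 107 LL peaks with the same score, 41 (38.3%) overlapped an LD peak. The LL peak held 142 normalised tags, which equals 41.3 tags on the LD scale, or 33.0 after scaling by the median ratio of overlapping pairs. The weakest LD peak held 31 tags.

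**Figure D2:**
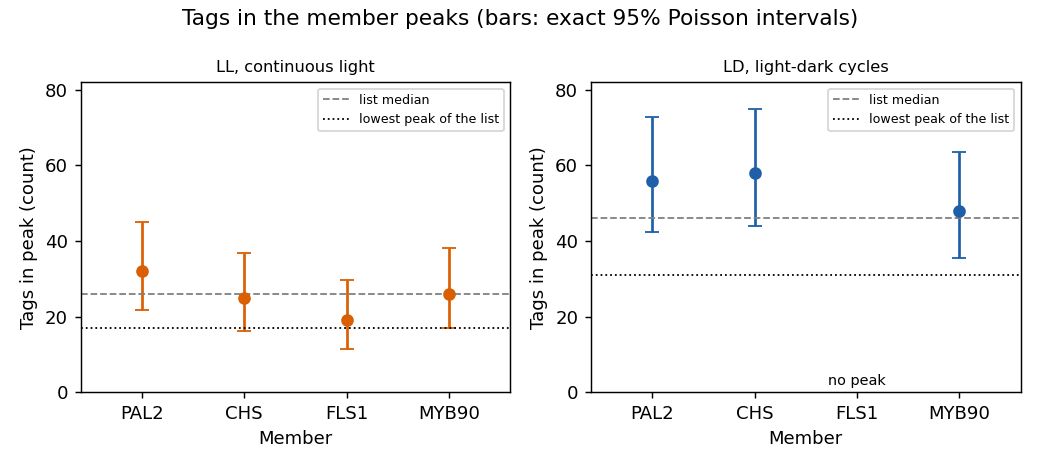
Tags per peak (counts) at PAL2, CHS, FLS1 and MYB90 in LL (left) and LD (right), with exact 95% Poisson intervals as bars, the list median dashed and the weakest peak of the list dotted. LL tags run from 19 to 32 around a median of 26, LD tags from 48 to 58 above a median of 46. FLS1 has no LD peak.

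MYB113 (AT1G66370), MYB114 (AT1G66380) and MYB90 (AT1G66390) are neighbouring paralogs on chromosome 1, and MYB75 (AT1G56650) lies elsewhere on that chromosome. A peak assigned to MYB90 was found from 24760753 to 24760911 in LL and from 24760767 to 24760891 in LD, with centres 3 bp apart. It lay 3125 bp upstream of the MYB90 TSS in LL and 3128 bp upstream in LD, in the Intergenic category, so the annotation column names no gene. By the gene coordinates of the reference annotation it lies between MYB114 and MYB90. It held 26 tags in LL (17.0 to 38.1) and 48 in LD (35.4 to 63.6), with scores of 27 and 49 near the middle of each list (percentiles 53.7 and 52.9). The peak stood 7.59-fold over control in LL and 9.40-fold in LD, at percentiles 12.0 and 19.5. The 500 bp around it held 26.3% G and C in either list, against list medians of 32.7% in LL and 33.3% in LD.

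MYB75 was assigned no peak, but the gene next to it was. A peak on chromosome 1 from 21232242 to 21232400 in LL, and from 21232244 to 21232368 in LD, is assigned to the pseudogene AT1G56640, 1852 bp and 1837 bp upstream of its TSS. The annotation column calls it Intergenic, and by the gene coordinates of the reference annotation it lies between AT1G56640 and MYB75. Its score was above that of every peak assigned to the 8 genes in the same list. It had 36 tags in LL (25.2 to 49.8) and 83 in LD (66.1 to 103). Its scores were 36 and 84, at percentiles 75.1 and 86.6, and it was 21.6-fold over control in LL and 26.0-fold in LD. With 1.7 control tags in LL and 3.2 in LD it lacked the high control tags seen at PAL2.

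In LL the peaks at PAL2, CHS and MYB90 stood lower in their list by fold over control than by score. The LL folds over control ran from 5.64 at PAL2 to 8.44 at FLS1, between percentiles 2.79 and 18.2 of a list with a median of 13.6. In LD the folds were 5.60 at PAL2, 9.40 at MYB90 and 18.2 at CHS, around a list median of 14.8. LL control tags were above the list median of 2.1 at all 4 peaks, from 2.3 at FLS1 to 5.7 at PAL2. LD control tags were 10.0 at PAL2 and 5.1 at MYB90, and equal to the list median of 3.2 at CHS. Against the local tag density the peaks were 11.95-fold to 17.5-fold in LL and 13.1-fold to 16.8-fold in LD, at percentiles 43.1 to 80.4 of their lists. Whether the higher control tags bear on the calls was not tested.

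**Figure D3:**
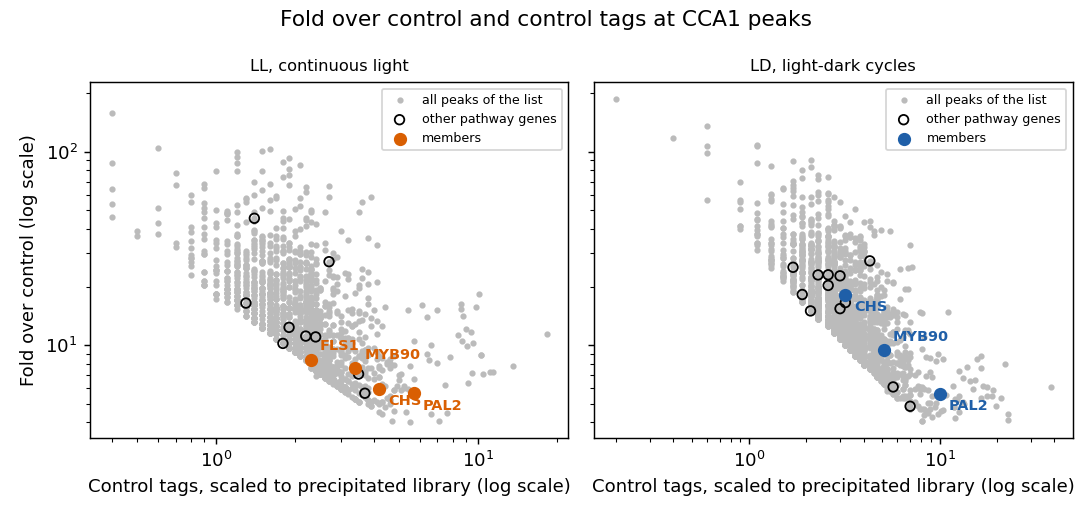
Fold over control against control tags (both on log scales) for all peaks of LL (left) and LD (right) in grey, with peaks of the 8 genes as filled points and of other pathway genes as open circles. All 4 LL peaks sit at folds of 5.64 to 8.44, and in LD the CHS peak stands at 18.2 above MYB90 and PAL2.

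The series set LL binding against LD binding, and at these genes most sites were common to both. Of the 4 LL peaks, 3 overlapped an LD peak, and all 3 LD peaks overlapped an LL peak. Among all peaks 74.6% in LL and 66.5% in LD did so, so sharing at these genes is not set apart from the lists as a whole. The LL to LD ratio of normalised tags was 1.24 at PAL2 (239.5 in LL and 192.8 in LD, interval of the ratio 0.778 to 1.95). It was 1.18 at MYB90 (194.6 and 165.3, interval 0.701 to 1.94) and 0.937 at CHS (187.1 and 199.7, interval 0.562 to 1.52). Each interval includes 1 and also the median ratio of 1.25 over all 1069 overlapping pairs. LL and LD peaks differ in width, and with pooled lists the regimes cannot be tested. At the peak beside MYB75 the ratio was 0.943 (269.5 and 285.8, interval 0.619 to 1.41).

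**Figure D4:**
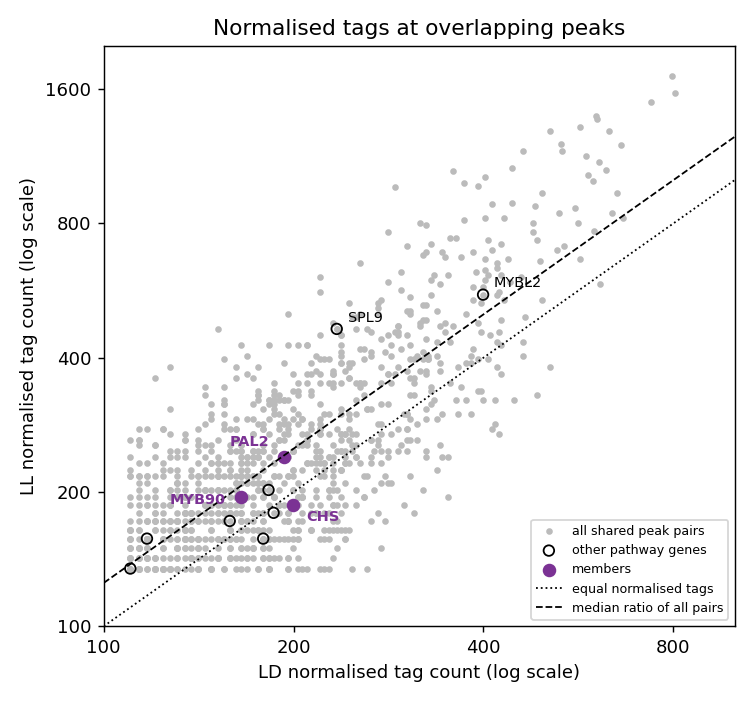
Normalised tags of overlapping peaks in LL (vertical) and LD (horizontal), both on log scales, for all 1069 pairs in grey, with PAL2, CHS and MYB90 filled and other pathway genes open. The dotted line marks equal values and the dashed line the median ratio of 1.25. CHS lies below the dotted line at 0.937, PAL2 on the dashed line at 1.24, and SPL9 above it at 1.98.

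Beyond the 8 genes, 79 further genes of the pathway were examined in 4 groups of enzymes, regulators and turnover proteins. Of the 79 genes, 9 had an LL peak (11.4%) and 11 an LD peak (13.9%). Of 25 transcription factors and partners, 5 had an LL peak and 6 an LD peak. Of 7 F-box and COP1-SPA genes, 2 had a peak in each list. Among 20 enzymes of the general, lignin and sinapate branches there were 0 in LL and 1 in LD, and among 27 flavonoid and anthocyanin enzymes and transporters 2 in each. PAL3, PAL4, C4H, F3H, DFR and LDOX were among the genes without a peak. These groups were chosen with earlier results known, and their shares are descriptions beside the 3.82% and 4.24% of all nuclear genes.

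MYBL2 and SPL9, which restrain anthocyanin production, carried the highest scores among the peaks of these 79 genes in either list. MYBL2 (AT1G71030) encodes a small MYB repressor and had a promoter peak on chromosome 1 from 26796519 to 26796677 in LL, 234 bp upstream, and from 26796523 to 26796647 in LD, 221 bp upstream. It held 74 tags in LL (58.1 to 92.9) and 116 in LD (95.9 to 139), and ranked 76 of 1433 and 73 of 1607 by score. A weaker LD peak 694 bp upstream (35 tags) overlapped no LL peak. Its centre lay 473 bp from that of the stronger LD peak, and it was 6.09-fold over control, at percentile 4.86 of the LD list. It held 120.5 normalised tags, against 127.2 at the weakest LL peak, and a difference between regimes was not tested. SPL9 (AT2G42200), whose protein disturbs the anthocyanin-activating MYB complex, had a peak in intron 1 of 2, 898 bp downstream of the TSS in LL and 901 bp in LD. It held 62 tags in LL (47.5 to 79.5) and 68 in LD (52.8 to 86.2). Its LL to LD ratio of normalised tags was 1.98 (interval 1.38 to 2.84, not adjusted for the choice of this gene). It stood at percentile 92.3 of the ratios of all 1069 pairs, and it was the highest ratio among the 11 pathway pairs and was singled out for that.

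Other regulators had weaker peaks. MYB7 (AT2G16720), related to the repressor MYB4, had one in exon 2 of 2 with 23 tags in LL and 46 in LD. LBD37 (AT5G67420), a nitrogen-responsive repressor of anthocyanin genes, had one 2788 bp downstream of its TSS in LL and 2856 bp in LD, with 18 and 32 tags. MYB3 (AT1G22640), a repressor of phenylpropanoid genes, was assigned Intergenic peaks with 25 tags in LL and 59 in LD that lay 4857 bp and 4574 bp downstream of its TSS, 283 bp apart, and did not overlap. TTG1 (AT5G24520) had a peak at its TSS in LD alone, with 35 tags and a score of 37 at percentile 20.1. The TTG1 peak held 120.5 normalised tags, against 127.2 at the weakest LL peak, and a difference between regimes was not tested. TT8, GL3, EGL3, MYB12, MYB11, MYB111, HY5 and COP1 were assigned no peak in either list. Nor were MYB4, MYB32, LBD38, LBD39, CPC and TRY, so repressors such as MYB4 were also among the genes without a peak.

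Among the F-box genes whose products target PAL or chalcone synthase for degradation, 2 had peaks in both lists. KFB50 (AT3G59940), which acts on PAL proteins, had a promoter peak 712 bp upstream in LL with 21 tags (13.0 to 32.1) and 724 bp upstream in LD with 52 tags (38.8 to 68.2). AT1G23390, known as KFB-CHS for its action on chalcone synthase, was assigned a peak 1128 bp upstream in LL with 27 tags (17.8 to 39.3) and 1130 bp upstream in LD with 53 tags (39.7 to 69.3). The annotation column places the KFB-CHS peaks at the end of the adjacent AT1G23400. These peaks were 11.0-fold and 16.5-fold over control in LL, at KFB-CHS and KFB50, and 16.6-fold and 20.4-fold in LD. KFB01, KFB20 and KFB39, further F-box genes of this kind, were assigned none.

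Enzyme genes other than the 8 had few peaks. 4CL1 (AT1G51680), a 4-coumarate:CoA ligase gene, had an Intergenic peak 1020 bp upstream in LD alone, with 43 tags (31.1 to 57.9) and 25.3-fold over control. No LL peak lay within 26684 bp of it. Its score of 44 stood at percentile 41.2 of the LD list, and a difference between regimes was not tested. UGT78D1 (AT1G30530), a flavonol glycosyltransferase gene, and SCPL10 (AT2G23000), an acyltransferase gene of anthocyanins, were named by the annotation column alone, at their 3' ends. The UGT78D1 peak held 24 tags in LL and 54 in LD, and the nearest promoter was that of AT1G30540. The SCPL10 peak held 21 tags in LL and 34 in LD, 5.65-fold and 4.84-fold over control, and the nearest promoter was that of SCPL9.

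**Figure D5:**
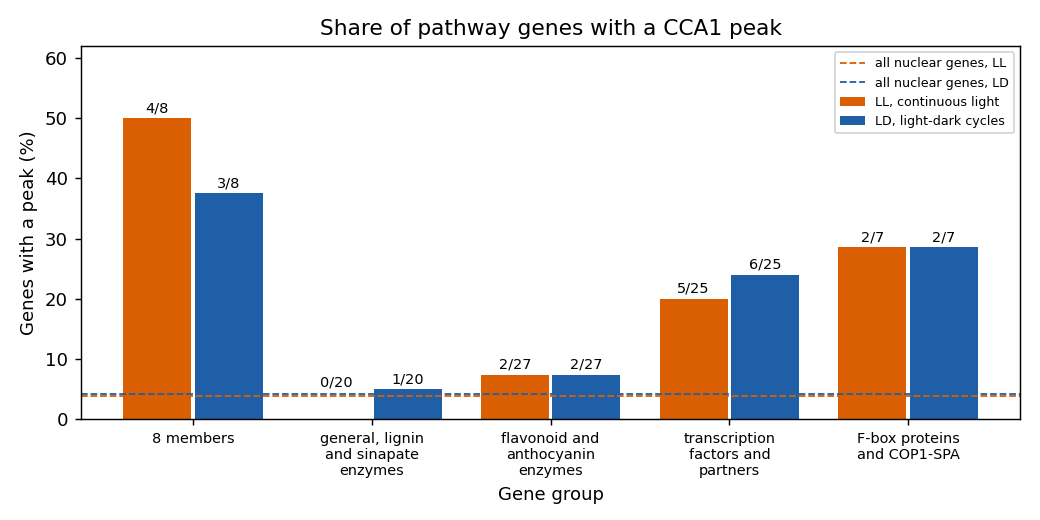
Percentage of genes with a peak named by either column, for the 8 genes and 4 further groups of the pathway, with LL left of LD and the number of genes above each bar. Dashed lines mark all nuclear genes (3.82% in LL, 4.24% in LD). The 20 general enzymes have 0 LL peaks, and the 25 transcription factors and partners have 5 in LL and 6 in LD.

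Across the 1001 genes that were nearest to a peak in both lists, those with scores closest to PAL2 were AT5G03930 and the pseudogene AT2G07880, both with the same scores of 31 in LL and 57 in LD, and GBF3 (31 and 58), which encodes a G-box binding factor. Closest to CHS were AT3G14060 (26 and 60), AT5G01820 (26 and 61), which encodes the protein kinase CIPK14, and the chaperone gene J8 (26 and 57). Closest to MYB90 were AT1G75180 (27 and 49), AT3G11590 (27 and 48) and the pseudogene AT5G31787 (28 and 49). Likeness was measured as the distance between log2 scores over 2 lists, and scores of this size are common in either list. The highest score of a gene in each list was used, so its LL and LD peaks need not be the same site. Distances to the TSS in LL and LD were 2467 and 1360 bp at AT2G07880, 234 and 89 bp at AT1G75180, and -3055 and -3834 bp at AT5G31787.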

How the data were processed

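CCA1-GFP chromatin was sequenced from whole seedlings, and 1 peak list per regime was analysed. Per the submitters' processing notes, the tools were HOMER 4.7, Bowtie2 2.2.1, Trimmomatic 0.33 and CASAVA 1.8, on TAIR10. The deposited peaks are, per the file headers, the top set of a reproducibility (IDR) step on combined data, annotated with annotatePeaks.pl in a 500 bp window. No source used here gives the control library or says whether duplicate reads were removed. Per the file headers, each peak carries its total tags (a count), a normalised tag signal (the tags times 1 constant per list), a control signal (control tags scaled to the size of the precipitated library), a score, the fold ratio over control, a p-value over control and a GC fraction, all computed by the authors.

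A gene was given a peak where the nearest-promoter or the annotation column named it. A minimum overlap of 1 bp made peaks of the regimes shared. Tag counts carry exact 95% Poisson intervals, and ratios of normalised tags carry exact conditional binomial intervals. They cover counting error alone, because the libraries of a regime are pooled. Where PCR copies remain, the intervals are too narrow even for that, because such copies are not independent molecules. There was no test, because replicates are pooled. The overlap and interval steps were tested on simulated data. Python 3.11.15 with pandas 2.3.3 and scipy 1.17.1 was used. All 8 genes and all 79 other pathway genes matched the RefSeq gene table of assembly TAIR10.1, from which names, gene order and gene coordinates were taken. The genes on either side of a peak were found by setting its TAIR10 position against these TAIR10.1 coordinates. Motif searches and protein identities were planned and not run, because no sequence was used here, and the nearest peak of a gene without a peak was found by gene order instead of by distance.

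Named were the 8 genes, every pathway gene with a peak in either list, the genes that the columns name beside them, and, for each of the 8 with overlapping peaks, the 3 genes with the closest log2 scores. The peak beside MYB75, the rank of the CHS fold over control and the LL to LD ratio at SPL9 were singled out after their values were seen. The 8 genes, the pathway lists and the rules were chosen with earlier results of these data known. The alternatives were other gene assignments, overlaps, list lengths and measures of strength. There were 0 unused per-sample columns.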

Additional observations from a re-analysis of the deposited data

How the results depend on the processing

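Counts depended on how peaks were assigned to genes. With the annotation column alone, 1 of the 8 genes had an LL peak and 0 an LD peak (background 2.84% and 3.15%), 7 of 79 other pathway genes had an LD peak, and 0 peaks of the 8 genes were left in an overlap in LL or in LD. With peak centres in a window of 1000 bp before to 500 bp after the TSS (background 2.21% and 2.45%), 2 of the 8 genes had an LL peak and 1 an LD peak, 1 peak of each list overlapped the other list, and 2 and 3 other pathway genes had a peak. With the nearest-promoter column alone (background 3.38% and 3.77%) the 8 genes kept counts of 4 and 3. By that column 7 other pathway genes had a peak in LL and 9 in LD. The upper 50% of each list by score, with ties at the median (background 2.03% and 2.18%), left 3 of the 8 genes with a peak in LL, where FLS1 was lost, and 3 in LD, and 4 and 6 other pathway genes with a peak in LL and LD. The median log2 LL to LD ratio over PAL2, CHS and MYB90 was 0.24 from normalised tags, -0.88 from scores, which are not scaled for depth, -0.31 from fold over control and -0.09 relative to all overlapping pairs. An overlap of 50% of both peaks, centres within 500 bp and equal list lengths left the counts of the 8 genes and their overlaps at 4, 3, 3 and 3. With equal list lengths 9 other pathway genes had a peak in LL and 9 in LD, against 9 and 11 with the full lists. The share of all nuclear genes with a peak at equal list lengths is not given here, so this drop has no background beside it. No paired analysis was possible because each list pools its libraries, and for the same reason no replicate could be left out. The weakest deposited peaks held 17 tags in LL and 31 in LD, and what set these minima was not tested.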
